A study of Mus musculus with 10 samples.

Results

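The stathmin genes Stmn1, Stmn2, Stmn3 and Stmn4 and 6 further genes of the neuronal microtubule skeleton, namely Tubb3, Dcx, Mapt, Map1b, Map2 and Crmp1, were followed in dorsal root ganglia (DRGs) with and without Lkb1. They were chosen by name as 10 genes, and all 10 were among the 19938 genes measured. DRGs lie beside the spinal cord and house sensory neuron cell bodies. The Lkb1 KO embryos carried floxed Lkb1 (gene symbol Stk11, a kinase gene) deleted by a Wnt1-Cre transgene, which is active in the neural crest lineage that gives rise to DRG neurons and glia, and also in the midbrain and dorsal neural tube. The WT embryos were littermate controls on the same mixed background, and no source used here says whether they carried the floxed allele or Cre. DRGs were taken at E13.5, and each of the 5 Lkb1 KO and 5 WT samples pooled the DRGs of 2 embryos on 1 one-colour Affymetrix array. Levels are log2 expression values, so that a difference of 1 is a doubling, and levels of different genes are not compared because their probes differ.

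Microtubules are built from tubulin dimers, and growing axons depend on their continual assembly and disassembly. Stathmins bind tubulin dimers and favour disassembly, and phosphorylation releases the tubulin. Stmn1 is cytosolic and is also made by dividing cells, whereas Stmn2, Stmn3 and Stmn4 are neuronal, carry an added stretch that anchors them to membranes, and reach growth cones. Doublecortin, tau, MAP1B and MAP2 bind and stabilize the microtubule itself, class III beta-tubulin is the neuronal tubulin whose staining marks axons, and CRMP1 is a tubulin-binding protein of semaphorin signalling.

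The deletion was seen in the arrays, and the pools differed in sex. Stk11 RNA was lower in Lkb1 KO (log2 fold change -0.92, SE 0.092, limma adjusted p = 1.15e-04) and no KO sample reached the WT range, although the position of the probes within the floxed gene is unknown here. Lkb1 KO replicates 2 and 5 had almost no Y-linked signal (means of 3 genes of 5.02 and 5.21 against 8.80 to 9.81 in the other 8 samples). Xist, a gene expressed in female cells, was at 5.06, 4.48 and 5.46 in WT replicates 1, 3 and 5. It was at 4.89 in Lkb1 KO replicate 3 and between 11.7 and 12.37 in the remaining samples of both groups. Leaving out Lkb1 KO replicates 2 and 5 thus did not make the groups alike in sex. For each named gene whose call was lost without these pools, the value without them is given. All 14 measured sensory neuron markers had lower means in Lkb1 KO, and 2 of them passed the test. The array medians differed by at most 0.069, and the number of arrays limits the precision.

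Of the 10 genes, Stmn4 alone passed the test. Its level in WT replicates 1 to 5 was 9.54, 9.68, 9.65, 9.59 and 9.50 on the log2 scale. In Lkb1 KO replicates 1 to 5 it was 9.37, 9.28, 9.23, 8.98 and 9.24. Every Lkb1 KO sample thus lay below every WT sample, with Lkb1 KO replicate 4 the lowest. Its log2 fold change of -0.37 had an SE of 0.065, a 95% confidence interval of -0.52 to -0.23 and a limma adjusted p of 0.00644, which puts Stmn4 RNA 22.9% lower in Lkb1 KO. An exact two-sided permutation test over all 252 assignments of the samples gave p = 0.00794, the smallest it can give. This free exchange of labels leaves out the pairing by replicate number that was read from the data. With labels exchanged only between samples of the same replicate number the exact test gave 0.0625, the smallest of 32 assignments, which cannot reach 0.05. Among all genes 3.87% were called, 1.38% as lower in Lkb1 KO and 2.49% as higher. The call held under all 21 alternative settings, at adjusted p-values between 0.00131 and 0.0484, the latter from a per-gene analysis of variance. Without Lkb1 KO replicates 2 and 5 the log2 fold change was -0.40, at a limma adjusted p of 0.0311.

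**Figure D1:**
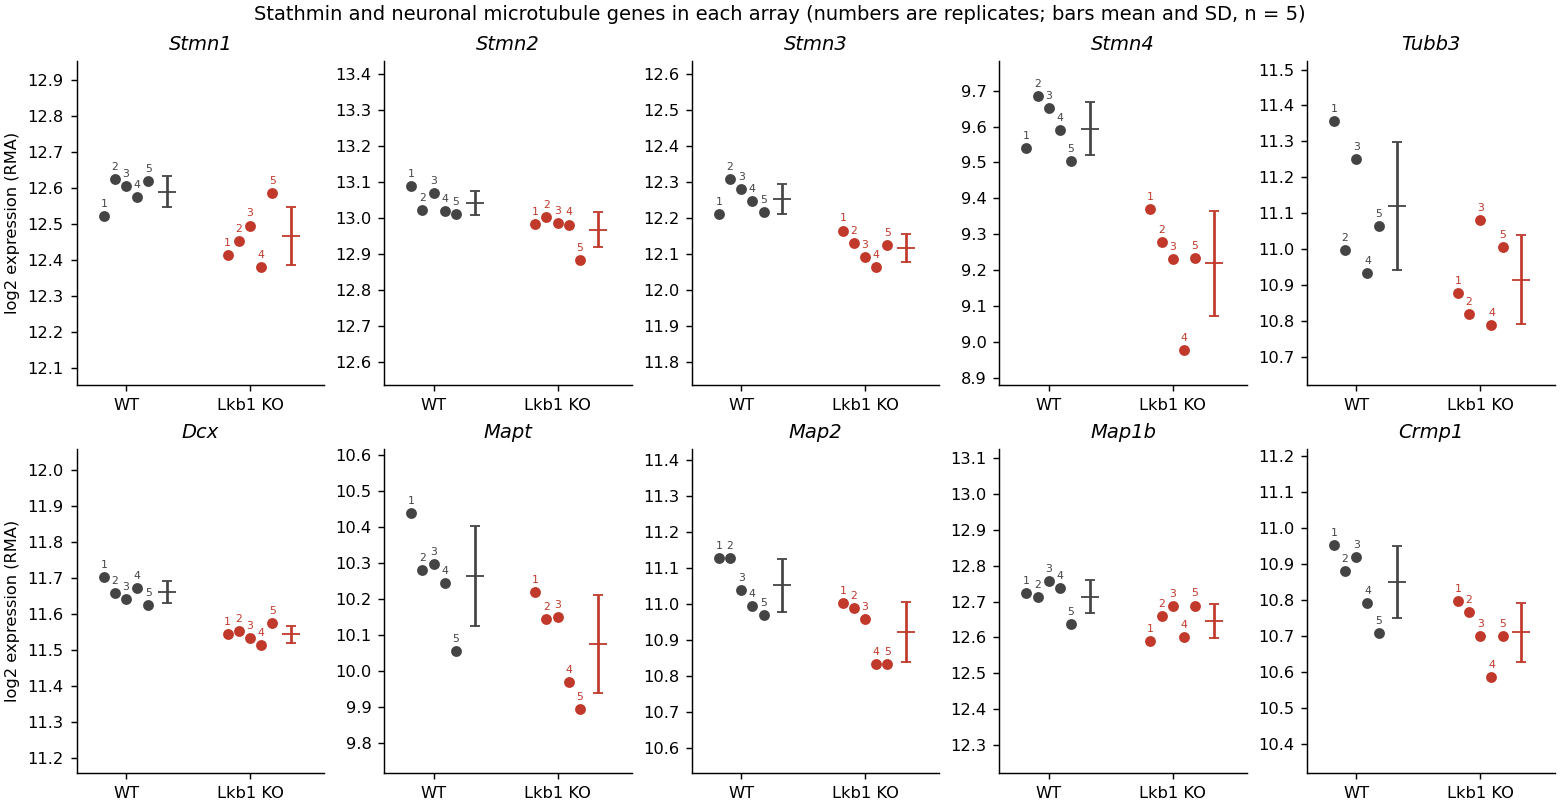
Log2 expression (y axis, each panel spanning the same range of 0.9) of the 10 genes in the 5 WT (grey) and 5 Lkb1 KO (red) samples, numbered by replicate, with the mean and SD (n = 5) beside the points. The groups do not overlap for Stmn2, Stmn3, Stmn4 and Dcx, and the gap is widest for Stmn4.

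The other stathmin genes had smaller differences. Stmn3, which encodes the neuronal stathmin SCLIP, was at 12.21, 12.31, 12.28, 12.25 and 12.22 in WT replicates 1 to 5 and at 12.16, 12.13, 12.09, 12.06 and 12.13 in Lkb1 KO replicates 1 to 5. The groups did not overlap, and the log2 fold change of -0.14 (SE 0.036) had a limma adjusted p of 0.0544, just outside the threshold. It passed under 6 of the 21 alternatives. Limma called it with an intensity trend and robust prior (adjusted p = 0.013, with 1.53% of all genes called lower) and with array weights (0.0268, 1.89% of genes). The analysis of variance per gene called it as well (0.0396, 0.637% of genes). It also passed with cyclic loess normalization (0.0474, 1.35% of genes), the dimmest 30% of genes left out (0.0472, 2.25% of genes) and Lkb1 KO replicate 1 left out (0.0467). Stmn2, the gene of SCG10, was at 13.09, 13.02, 13.07, 13.02 and 13.01 in WT replicates 1 to 5 and at 12.98, 13.00, 12.99, 12.98 and 12.88 in Lkb1 KO replicates 1 to 5. These values did not overlap either, but the nearest WT and Lkb1 KO samples were only 13.01 and 13.00, and the log2 fold change was -0.074 (limma adjusted p = 0.368). Stmn1 was at 12.52, 12.62, 12.60, 12.57 and 12.62 in WT and at 12.41, 12.45, 12.49, 12.38 and 12.59 in Lkb1 KO, in the order of the replicates. Lkb1 KO replicate 5 lay within the WT range and the other 4 below it, and the log2 fold change of -0.12 had a limma adjusted p of 0.177. A second probe set annotated to Stmn1 gave nearly the same difference, -0.12 at a mean of 12.49. A second one of Stmn3, at a mean of only 4.82, gave -0.11.

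Among the tubulin and microtubule-binding genes of the 10, doublecortin was the one whose groups were parted. Dcx was at 11.70, 11.66, 11.64, 11.67 and 11.63 in WT replicates 1 to 5 and at 11.54, 11.55, 11.53, 11.51 and 11.57 in Lkb1 KO replicates 1 to 5. With an SD of 0.030 in WT and 0.023 in Lkb1 KO (n = 5 each) it had the smallest spread of the 10 genes, and its log2 fold change of -0.12 had a limma adjusted p of 0.0709. The analysis of variance per gene, which uses each gene's own spread, called it (adjusted p = 0.0162, with 0.637% of all genes called lower). So did limma with an intensity trend and robust prior (0.0213, 1.53% of genes) and with array weights (0.0429, 1.89% of genes). The axonal tau gene Mapt varied far more. It was at 10.44, 10.28, 10.30, 10.24 and 10.06 in WT and at 10.22, 10.14, 10.15, 9.97 and 9.89 in Lkb1 KO, in the order of the replicates. Replicate 5 was the lowest of both groups and replicate 1 the highest, so the groups overlapped, while Lkb1 KO was lower within each of the 5 replicate numbers. The log2 fold change of -0.19 (SE 0.075) had a limma adjusted p of 0.240, which was 0.0166 once replicate numbers were blocked.

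Class III beta-tubulin RNA had the second lowest fold change and the largest WT spread. Tubb3 was at 11.36, 11.00, 11.25, 10.93 and 11.06 in WT replicates 1 to 5 and at 10.88, 10.82, 11.08, 10.79 and 11.01 in Lkb1 KO replicates 1 to 5. WT replicates 1 and 3 stood above the other WT samples, and Lkb1 KO replicates 3 and 5 lay within the WT range. Its log2 fold change was -0.21 (SE 0.083, limma adjusted p = 0.245, 0.0684 with the replicate block). Map2, whose product is mainly dendritic in mature neurons, ran from 10.97 to 11.13 in WT and from 10.83 to 11.00 in Lkb1 KO, with a log2 fold change of -0.13 (limma adjusted p = 0.217). Crmp1 ran from 10.71 to 10.95 in WT and from 10.59 to 10.80 in Lkb1 KO, with -0.14 (limma adjusted p = 0.227). Map1b, an early protein of growing axons, ran from 12.64 to 12.76 in WT and from 12.59 to 12.69 in Lkb1 KO, with -0.067 (limma adjusted p = 0.456). It was the only gene of the 10 that was higher in Lkb1 KO within a replicate number, by 0.052 in replicate 5.

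Read together, the 10 genes had a common direction and mostly small sizes. All 10 had a mean below that of WT, against 50.9% of all genes, and their median log2 fold change was -0.13, against -0.0017 over all genes. At an unadjusted p under 0.05 from limma 8 of the 10 were lower, against 7.77% of all genes. In 4 of the 10 the groups were fully parted with Lkb1 KO below, as in 2.24% of all genes, and in none with Lkb1 KO above, as in 3.09%. The genes were chosen with results of these data known and are measured in the same pools, so these counts describe them and do not test them. With the replicate block 2 of the 10 were called lower, Stmn4 and Mapt, where 2.83% of all genes were. The 9 genes other than Stmn4 were 4.54% to 13.2% lower in Lkb1 KO. Their 95% confidence intervals all overlapped one another, from -0.15 to -0.059 on the log2 scale in common. The order among them is thus not settled. The interval of Stmn4, -0.52 to -0.23, also overlapped those of Tubb3, Mapt, Crmp1 and Map2, and Stmn4 was not tested against these genes.

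**Figure D2:**
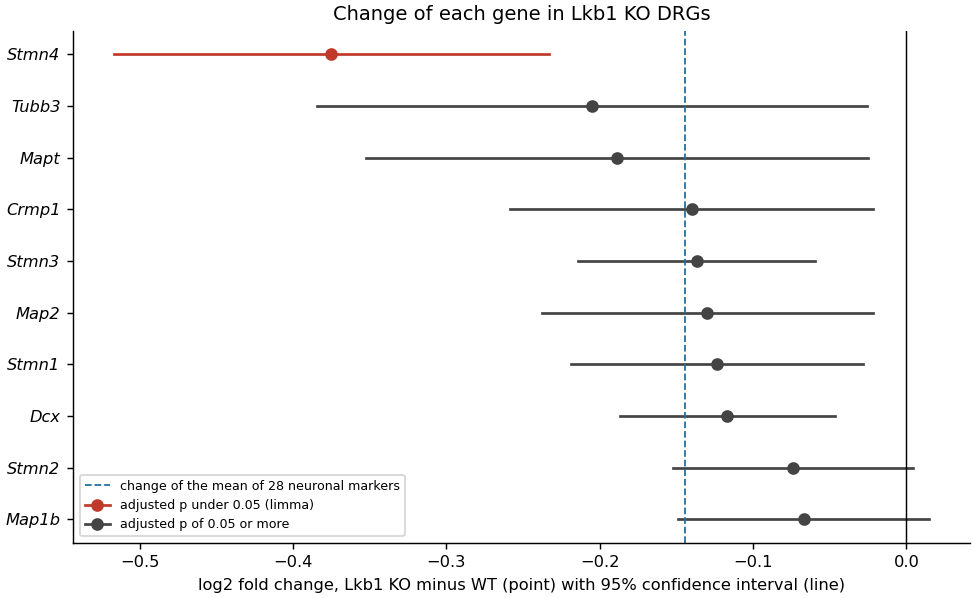
Log2 fold change (Lkb1 KO minus WT, x axis) of each of the 10 genes with its 95% confidence interval from limma, red where the adjusted p was under 0.05. The dashed line marks the change of the mean of 28 neuronal markers, -0.14, which lies inside the intervals of 9 genes and outside that of Stmn4.

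Other neuronal RNAs differed by a like amount. The mean of 28 measured neuronal markers, of sensory neurons and of neurons in general and with none of the 10 genes among them, was between 10.38 and 10.57 in WT and between 10.28 and 10.41 in Lkb1 KO, a difference of -0.14. Of these markers 26 had a lower mean in Lkb1 KO and 3 passed the test as lower. The 3 were Isl1, a sensory neuron transcription factor gene (log2 fold change -0.25), Prrxl1, another (-0.19), and Elavl4, which encodes a neuronal RNA-binding protein (-0.18). Prrxl1 lost its call under 11 of the 21 alternatives (adjusted p between 0.0589 and 0.109). When Lkb1 KO replicates 2 and 5 were left out, its adjusted p was 0.0822, and Elavl4 lost its call too (0.0564). In bulk ganglia fewer neurons, less RNA per neuron and a larger share of RNA from other cells cannot be told apart. The paper counted sensory neurons at a later embryonic stage and detected no significant difference in their number.

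Set against these markers within each array, Stmn4 had the largest change of the 10 genes. The difference between a gene and the marker mean changed by between -0.061 and 0.077 for the 9 other genes, and 7 of them had a relative change above 0. For Stmn4 the same difference was -1.03, -0.85, -0.89, -0.90 and -0.88 in WT replicates 1 to 5 and -1.03, -1.11, -1.18, -1.30 and -1.09 in Lkb1 KO replicates 1 to 5. WT replicate 1 and Lkb1 KO replicate 1 were nearly equal, and the other WT samples lay clearly above the other Lkb1 KO samples. The relative change of Stmn4 was -0.23 (SE 0.055), and an exact two-sided permutation test gave its smallest possible p of 0.00794. Its level was thus lower in Lkb1 KO also relative to the mean of these markers in the same pool. Single markers had log2 fold changes from -0.33 (Runx3, limma adjusted p = 0.149) to 0.033 (Rbfox3, 0.834). Stmn4 was not tested against single markers.

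Stmn4 differed from each of its paralogs in the same way. The difference Stmn4 minus Stmn3 was between -2.71 and -2.62 in WT and between -3.08 and -2.79 in Lkb1 KO, and the groups did not overlap. The change was -0.24 (SE 0.052, exact two-sided permutation test, p = 0.00794, adjusted p = 0.0119 over the 3 paralogs). For Stmn4 minus Stmn2 it was -0.30 (SE 0.078, exact permutation test, p = 0.00794, adjusted p = 0.0119), again without overlap. For Stmn4 minus Stmn1 it was -0.25 (SE 0.071, exact permutation test, p = 0.0159, adjusted p = 0.0159), and here WT replicate 5, at -3.12, lay below Lkb1 KO replicate 1, at -3.04. All 3 differences were lower in Lkb1 KO in 5 of 5 replicate numbers. Stmn4, its paralogs and the neuronal markers were chosen with results of these data known. The exact p-values given above for these comparisons account neither for that choice nor for the pairing by replicate number. They thus describe the differences and are no independent support. When labels were swapped only between same-numbered samples the exact test over 32 assignments gave p = 0.0625 for each, and for Stmn4 relative to the neuronal markers, which is the smallest it can give, so that it cannot reach 0.05.

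**Figure D3:**
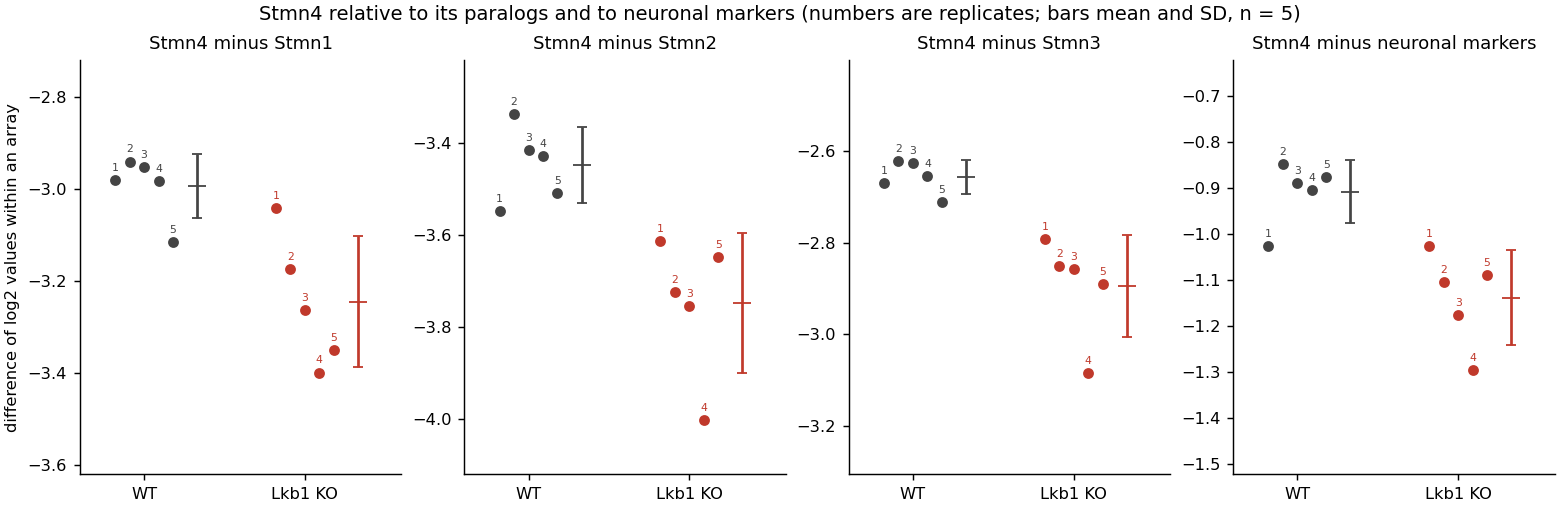
Difference of log2 values within each array (y axis, each panel spanning the same range) between Stmn4 and Stmn1, Stmn2, Stmn3 and the mean of 28 neuronal markers in WT (grey) and Lkb1 KO (red), numbered by replicate, with the mean and SD (n = 5). Lkb1 KO lies lower in each panel, with differences of -0.25, -0.30, -0.24 and -0.23 from WT, with 1 overlapping sample in the panel of Stmn1.

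Stmn4 also had the lowest probe signal of the 10 genes, which is not a comparison of RNA amounts, at a mean of 9.41 where the others had means from 10.17 to 13.00. Stmn1, Stmn2, Stmn3 and Map1b were among the 121 genes with a mean of at least 12. In that range 2 genes (1.65%) were called lower and the lowest log2 fold change was -0.20. Tubb3, Dcx, Mapt, Map2 and Crmp1 were among the 1682 genes with a mean from 10 up to 12, of which 28 (1.66%) were called lower, with a lowest log2 fold change of -0.45, below that of Stmn4. Of the genes around Stmn4, 56 of 2339 (2.39%) with a mean from 9 up to 10 were called lower. The part of signal level in the size of the differences was not tested.

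The RNAs of most other proteins that bind, fold, modify or cut tubulin did not pass the test. Of 16 measured tubulin genes 1 was higher and none lower, and their median log2 fold change was -0.010. The 1 was Tubb6, a broadly expressed beta-tubulin gene, with a WT level of 8.12 ± 0.11 (SD, n = 5) and a Lkb1 KO level of 8.45 ± 0.10 (SD, n = 5) (log2 fold change 0.33, limma adjusted p = 0.00988, and 0.0581 by analysis of variance). At an unadjusted p under 0.05 from limma 5 of the 16 were lower and 2 higher. Over all 19938 genes 3047 passed at this level in either direction, and 7.77% of all genes passed as lower. The neuronal tubulin genes Tubb2b, Tubb2a and Tuba1a had -0.12, -0.11 and -0.10 and did not pass (adjusted p between 0.156 and 0.242 from limma). Tubb6 and Tubb3 thus had opposite signs, and the change of one relative to the other was not tested. Of 5 genes related to Crmp1 none passed at an adjusted p under 0.05 from limma, and 2, Dpysl3 (-0.13) and Dpysl5 (-0.17), were lower at an unadjusted p under 0.05.

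Of 34 genes of other microtubule-associated proteins 1 was higher and none lower, with a median of -0.064. It was Nav2, of the neuron navigator family, at 0.21 (limma adjusted p = 0.0191), which lost its call without Lkb1 KO replicate 2 (0.0541), without replicate 3 (0.0515), without replicates 2 and 5 together (0.126) and with a Y-linked covariate (0.126). Its relative Nav3 was at -0.18 (0.0894). At an unadjusted p under 0.05 from limma 8 of the 34 were lower, against 7.77% of all genes, and 1 was higher. Of 32 genes of tubulin folding, modification and severing 1 was higher, Fign, of the severing ATPase fidgetin, at 0.30 (limma adjusted p = 0.0362). Its call was lost under 11 of 21 alternatives, at adjusted p-values between 0.05 and 0.200, and without Lkb1 KO replicates 2 and 5 its log2 fold change was 0.25 (0.197). None of the 32 passed as lower, and 7 were lower at an unadjusted p under 0.05 from limma, against 7.77% of all genes. Of 17 genes of kinases that act on microtubule-binding proteins or stathmins, with the CDK5 activator genes Cdk5r1 and Cdk5r2 counted among them, 1 was lower and none higher. This was Camk4, of the calcium/calmodulin-dependent kinase CaMKIV, which can phosphorylate stathmin, with a WT level of 7.46 ± 0.17 (SD, n = 5) and a Lkb1 KO level of 7.02 ± 0.13 (SD, n = 5). Its log2 fold change of -0.45 had a limma adjusted p of 0.00827. The call was lost without Lkb1 KO replicates 2 and 5 (0.0631), with a Y-linked covariate (0.0568) and by analysis of variance (0.0632). At an unadjusted p under 0.05 from limma 6 of the 17 were lower, against 7.77% of all genes. The kinases downstream of LKB1 in this list, Mark1, Mark2, Mark3, Mark4, Brsk1 and Brsk2, had log2 fold changes from -0.13 to 0.0019 and adjusted p-values of at least 0.194. Mark1, Brsk1 and Brsk2 were lower at an unadjusted p under 0.05 from limma, as were 7.77% of all genes.

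**Figure D4:**
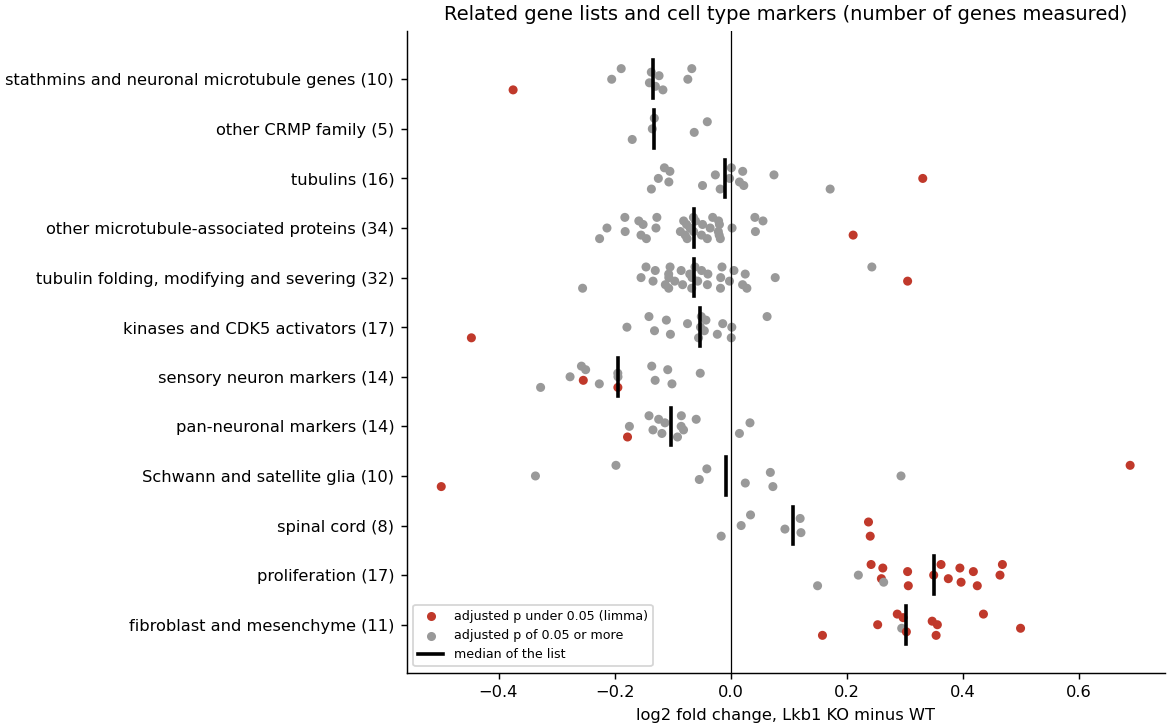
Log2 fold change (Lkb1 KO minus WT, x axis) of every measured gene of 12 lists (y axis, with the number of genes), red for an adjusted p (limma) below 0.05, with black bars at list medians. The 10 stathmin and microtubule genes have a median of -0.13, between those of the pan-neuronal (-0.10) and sensory neuron (-0.19) markers, while proliferation genes lie at 0.35 and fibroblast genes at 0.30.

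Markers of other cells moved with genotype beside these results. Of 17 proliferation genes 14 were higher and none lower in Lkb1 KO, and the list's mean level was between 8.43 and 8.64 in WT and between 8.78 and 9.02 in Lkb1 KO. Of 11 genes of fibroblasts and mesenchyme 10 were higher and none lower, with mean levels from 8.56 to 8.68 in WT and from 8.90 to 8.99 in Lkb1 KO. Of 10 genes of Schwann and satellite glia Dhh was higher (0.69) and Cdh19 lower (-0.50), and the list means overlapped, at 9.14 to 9.23 and 9.14 to 9.26. Of 8 spinal cord genes Pax2 and Pax6 were higher, at 0.24 each from WT levels of 5.11 and 4.89. Pax2 lost its call under 12 of 21 alternatives (adjusted p between 0.0543 and 0.199) and Pax6 under 11 of the 20 that measured it (0.0552 to 0.166). Without Lkb1 KO replicates 2 and 5 Pax2 was at 0.16 (adjusted p = 0.190) and Pax6 at 0.23 (0.0786). The part of these cells in the levels of the 10 genes was not tested.

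The genes whose profile over the 10 arrays was nearest to that of Stmn4 were sought outside the 10. Nearness was the root mean square difference of log2 values after each gene's own mean was subtracted. The nearest was the potassium channel gene Kcnh1, at 0.059, with a log2 fold change of -0.33 (limma adjusted p = 0.00324). It was followed by the adaptor gene Apba2 at 0.059 (log2 fold change -0.30), Kndc1 at 0.062 (-0.34), the peptidase gene Nln at 0.062 (-0.38) and the zinc finger gene Hivep3 at 0.071 (-0.34). These profiles include the gap between the groups, so a lower level in Lkb1 KO follows from how the 5 were chosen and is no finding about them. Apba2 (adjusted p = 0.041) lost its call under 10 of 21 alternatives, among them without Lkb1 KO replicates 2 and 5 (0.0812). Hivep3 was at -0.21 when its probe sets were averaged. Of the other 9 stathmin and microtubule genes none came so near. The gap between the groups enters their distances too, so their smaller differences place them farther from Stmn4 by construction. Crmp1 was the nearest at 0.14 and Stmn2 the farthest at 0.19.

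**Figure D5:**
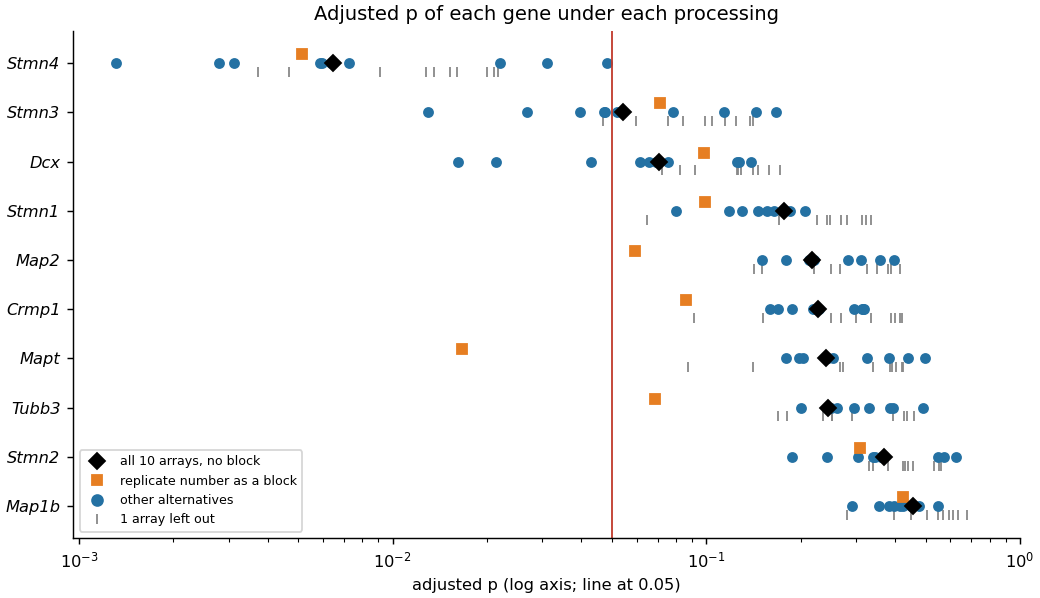
Adjusted p (x axis, log scale, red line at 0.05) of each of the 10 genes (y axis) with all 10 arrays and no block (diamonds), with the replicate number as a block (squares), under 10 other alternatives (circles) and with 1 array left out (ticks). Stmn4 stays below the line throughout, Stmn3 and Dcx lie on both sides of it, and Mapt crosses it with the replicate block.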

How the data were processed

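The authors deposited log2 values of 35556 probe sets. Per the submitters' notes these were made with RMA and Partek 6.6, and the methods name MATLAB. RMA corrects background, quantile-normalizes arrays and summarizes probe sets, and it can compress differences of very bright and very dim genes. No source used here names a genome build. The 21789 probe sets annotated to 1 gene were named through RefSeq (GRCm38.p6), and the brightest per gene was used, leaving 19938 genes. Each array received 250 ng of RNA, labelled with biotin.

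Genotypes were tested in limma 3.58.1 (R 4.3.3, lmFit, then eBayes) by two-sided tests. Benjamini-Hochberg adjustment ran over all genes, the threshold was 0.05, and dim genes were kept. Within-array differences were tested by exact permutation in Python 3.11.15. The fit was tested on simulated data.

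Same-numbered WT and Lkb1 KO samples deviated together from their group means (correlations across genes of 0.21 to 0.479, against -0.482 to 0.306 for different numbers), so the numbers were read as pairing the samples. The comparison itself had no replicate block, and blocked fits and permutations within numbers were run as alternatives. The pairing rests on these values, since the labels say only that the samples are biological replicates. No arrays were duplicates, as 2 arrays of a group differed by an SD of 0.177 to 0.276. The 10 genes and the lists were chosen with earlier results of these data known. Named genes were the 10, Stk11, up to 4 of each list by unadjusted p, and the 5 nearest to Stmn4. Tuba1a, Mark2, Mark3, Mark4, Brsk1 and Brsk2 were added after their values were seen. The alternatives were those given under the dependence on processing.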

Additional observations from a re-analysis of the deposited data

Results flagged for a closer look

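In 2 of 28 groups of 5 samples examined, 1 sample stood far from the rest by Dixon's ratio of its gap to the group's range; chance alone gives about 1 in 20. Stmn2 in Lkb1 KO replicate 5 was at 12.88, below the next sample at 12.98 (ratio 0.826). The difference Stmn4 minus Stmn1 in WT replicate 5 was -3.12, below the next at -2.98 (ratio 0.761). Without Lkb1 KO replicate 5 the Stmn2 log2 fold change was -0.053 (adjusted p = 0.531 from limma). Without WT replicate 5 the change of Stmn4 minus Stmn1 was -0.28 (exact permutation test, adjusted p = 0.0159).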

How the results depend on the processing

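No value of the 64 results examined changed sign under any alternative. Of the 10 genes, 1 was called lower with all arrays, 2 with cyclic loess, 2 with the dimmest 30% of genes left out, 3 with limma's intensity trend and robust prior, 3 with array weights and 3 by analysis of variance per gene. With the replicate number as a block 2 were called, and 1 to 2 when single samples were left out (2 without Lkb1 KO replicate 1, where Stmn3 passed). The replicate block gave the same differences for Stmn4 minus Stmn1 (-0.25), Stmn2 (-0.30), Stmn3 (-0.24) and the neuronal markers (-0.23), each at an exact p of 0.0625, the smallest the pairing allows. With single samples left out these ranged from -0.30 to -0.21, -0.33 to -0.24, -0.26 to -0.19 and -0.26 to -0.19.

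Over all genes 496 were higher and 275 lower. Analysis of variance called 260 and 127, a Y-linked covariate 285 higher, and the replicate block 715 and 565. Without Lkb1 KO replicates 2 and 5 there were 288 and 171. Leaving out single samples gave 333 to 487 higher and 146 to 347 lower. The lower count fell to 182 without WT replicate 1, 148 without WT replicate 2, 146 without WT replicate 3, 152 without WT replicate 4, 179 without Lkb1 KO replicate 3 and 173 without Lkb1 KO replicate 4. The cause was not tested. With 5 arrays a group the SEs of the 10 genes ran from 0.032 to 0.083 on the log2 scale, which limits the size of difference that could be called.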
